A study of Mus musculus with 11 samples.

Results

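The calmodulins and the calmodulin kinases of the aorta were followed through 9 genes, 2 for calmodulin itself (Calm2 and Calm3), 4 for the subunits of calmodulin kinase II (Camk2a, Camk2b, Camk2d and Camk2g) and 3 for the kinase cascade (Camkk2, Camk1 and Camk4). The members were taken by gene name, as every non-control probe that the array files give to one of these names, and they were 9 of 36413 distinct names on the array. They were covered by 19 probes on 28 spots of each array, since the Camk1 probe was printed on 10 spots.

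RNA of the descending aorta was measured on one-color Agilent arrays, one array for each mouse. All mice were male C57BL/6 mice aged 20 months on standard chow. In one group of 5, called nitrate, the drinking water held 1 g/L NaNO3 for 8 weeks, and the other group of 6 were controls, whose sodium chloride water is stated in the study's methods but not in the labels. The labels mark all 6 control samples as re-analysed from earlier ones, and a difference in the time or handling of the groups cannot be told apart from the treatment. The vessel was flushed, stripped of fat and connective tissue and measured whole, so the RNA is a mixture of smooth muscle, endothelium, fibroblasts and whatever else stayed on the wall, and fewer cells of a type cannot be told apart from less RNA per cell.

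Calmodulin is a small protein that binds calcium and then switches on other proteins. Calmodulin kinase II is a ring of subunits from 4 genes, of which the delta and gamma subunits are the forms known from vascular smooth muscle, while the alpha and beta subunits are known best from brain. In the cascade, calmodulin kinase kinase phosphorylates calmodulin kinases I and IV, and kinase IV acts in the nucleus on transcription factors such as CREB. In the vessel wall, calmodulin also activates myosin light chain kinase, which starts contraction, and the nitric oxide synthases.

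Each probe was a single strand of 60 bases, and its place decides which part of a message was measured. Among the 19 probes, 17 shared runs of only 7 to 9 bases with any probe of another of these genes or of the calmodulin pseudogene Gm5881. The exceptions were Calm2 probe 2 and Calm3 probe 2, which share the 15 bases tgttttccAATAAAa, with the polyadenylation signal in capitals. That signal, AATAAA, searched as these letters on the printed strand alone, was in 4 of the 19 probes, beside 10.1% of all 55681 probes. The 4 detected kinase probes that start before base 2000 of their transcripts are shown, because for Camk2b, Camk2d and Camkk2 they measured another stretch of the message than a probe nearer its end, and for Camk1 it is the single probe. Positions are in mm9, and capitals mark the longest run shared with a probe of another of these genes or of the pseudogene.
Camk2b probe 2, chr11:5872636-5872695, minus strand: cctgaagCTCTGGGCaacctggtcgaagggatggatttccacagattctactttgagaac
Camk2d probe 2, chr3:126543223-126543282, plus strand: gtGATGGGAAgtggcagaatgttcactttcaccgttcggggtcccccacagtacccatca
Camkk2 probe 2, chr5:123187482-123187541, minus strand: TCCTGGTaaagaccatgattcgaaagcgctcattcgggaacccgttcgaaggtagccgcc
Camk1 probe 1, chr6:113286369-113286428, minus strand: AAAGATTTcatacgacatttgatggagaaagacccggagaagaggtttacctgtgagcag

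Values are quantile normalized log2 signals. A probe counted as detected where the scanner software marked it as found and clearly over background in 5 or more arrays of one group, which left 23630 of the 55681 probes. It was called changed at an unadjusted P value under 0.05 in limma and a fold change above 1.2, the limits used in the study. At these limits 9.00% of the detected probes were changed, 982 higher and 1145 lower in nitrate, while 3 passed an adjusted P of 0.05. The number of detected probes per array lay between 24761 and 28665, and no spot was saturated. Each of the 3 slides held arrays of both groups, but all 6 controls and no nitrate array lay in the third column of their slide, so that slide column and treatment cannot be told apart. The array of control 1 was the lowest of the controls in several of the values below, and its part is given where it changes a call.

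Among the members, 14 probes of 8 genes were detected. 3 of the 14 were changed, which is 21.4% beside the 9.00% of all detected probes, and all 3 were higher in nitrate, where 4.16% of all detected probes were called higher. They were Calm2 probe 2, the Camk2g probe and Camk4 probe 1, so that calmodulin, kinase II and cascade each had 1 gene changed at any of its probes. At the brightest detected probe of each gene, the rule used for the pathway lists further on, 2 of the 8 genes were changed, Camk2g and Camk4. No member passed the adjustment over all detected probes with limma, where the smallest adjusted P was 0.200. Of the 14 member probes 4 had an unadjusted limma P under 0.05, beside 3393 of all 23630 detected probes. Of the 14 probes, 10 lay higher and 4 lower, with a median difference of 0.08 on the log2 scale beside 0.01 over all detected probes. Calm2, Camk2g and Camk4 are among the genes the study listed from these same samples, so their direction is not independent evidence.

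**Figure D1:**
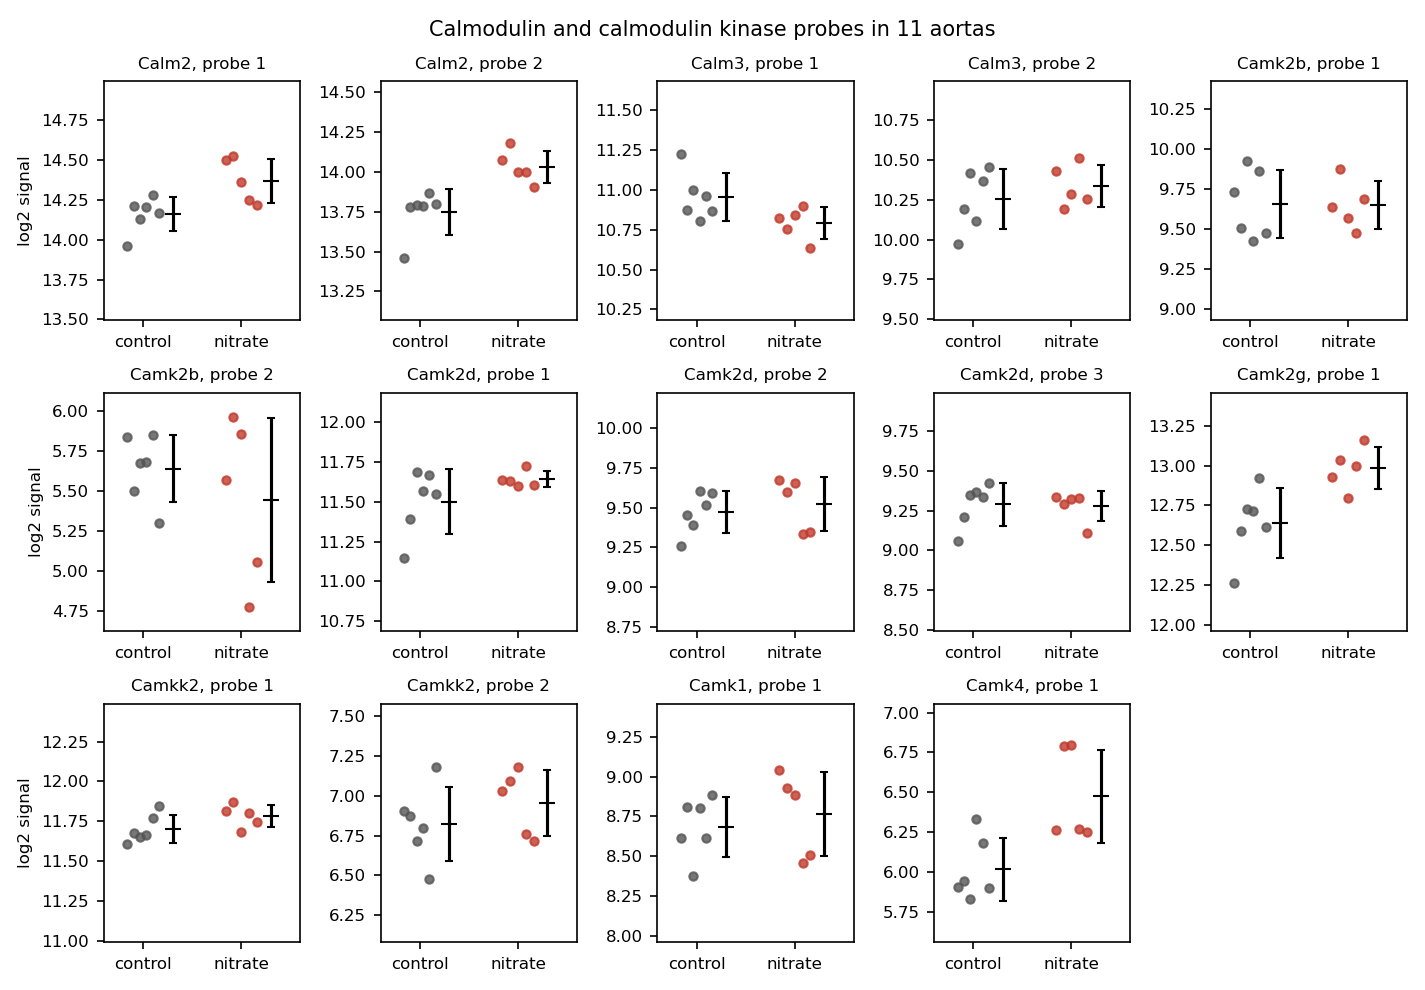
Log2 signal of the 14 detected probes in each array, controls in grey (n = 6) and nitrate in red (n = 5), with the mean and SD in black beside the points; every panel spans 1.5 log2 units. The groups were apart in Calm2 probe 2 and overlapped in the other 13 probes.

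Calm2, a gene for calmodulin, was among the brighter signals and rose with nitrate by 0.28 log2 units at probe 2 (chr17:87832770-87832829, minus strand, starting at base 1127 of its transcript). The nitrate arrays 1 to 5 gave 14.07, 14.18, 14.00, 14.00 and 13.90. The controls 1 to 6 gave 13.46, 13.78, 13.79, 13.79, 13.87 and 13.80. Every nitrate array lay above every control, which held for 2.75% of all detected probes, and the gap between the lowest nitrate array and the highest control was small beside the drop of control 1 below the other controls. The means were 14.03 ± 0.10 (SD, n = 5) and 13.75 ± 0.15 (SD, n = 6), a 1.22-fold difference with a standard error of 0.08. The files also list 2 predicted transcripts for this probe. The unadjusted limma P value was 0.00506 and the adjusted one 0.200, and the exact two-sided permutation test over every division of the mice into groups of 5 and 6 gave 0.00216, the smallest value it can give.

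The other Calm2 probe, the brighter of the pair, missed the fold limit. Calm2 probe 1 (chr17:87832973-87833032, starting at base 924) gave 14.50, 14.52, 14.36, 14.25 and 14.22 in nitrate. In the controls it gave 13.96, 14.21, 14.13, 14.20, 14.28 and 14.17. The 2 lowest nitrate arrays lay among the controls, and the means of 14.37 ± 0.14 (SD, n = 5) and 14.16 ± 0.11 (SD, n = 6) differed by 0.21 ± 0.08 (SE), a 1.16-fold difference under the fold limit (exact permutation P = 0.0173). Over the 11 arrays the deviations of both probes from their group means had a correlation of 0.88, and their differences were not told apart by the exact permutation test (P = 0.0823, adjusted 0.192 over 7 pairs of probes of one gene).

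Both Calm2 probes were higher in nitrate on each slide, by amounts that varied. For probe 2 the difference was 0.51 on slide 1, which held control 1, 0.20 on slide 2 and 0.12 on slide 3. For probe 1 it was 0.42, 0.18 and 0.03. Without control 1 the difference of probe 2 was 0.23, and without nitrate 2 it was 0.25, both under the fold limit. In 9 other settings of the processing probe 2 remained changed, between 0.28 and 0.29.

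Calm3 encodes the same calmodulin protein as Calm2 and was not called at either of its 2 probes. Calm3 probe 1 (chr7:17502158-17502217) lay between 10.64 and 10.90 in nitrate, with a median of 10.83. In the controls it lay between 10.81 and 11.22, with a median of 10.92. All 5 nitrate arrays were below the control median, and the means of 10.79 ± 0.10 (SD, n = 5) and 10.96 ± 0.15 (SD, n = 6) differed by -0.16 (exact permutation P = 0.0519). The files list 2 predicted transcripts besides Calm3 for this probe, one of them that of the pseudogene Gm5881, whose own probe differed by -0.15 (exact permutation P = 0.0476) and was not called. Calm3 probe 2 (chr7:17500734-17500793) had means of 10.34 ± 0.13 (SD, n = 5) with nitrate and 10.25 ± 0.19 (SD, n = 6) without, which differ by 0.08 (exact permutation P = 0.448). The difference between these 2 probes was -0.25 with an exact permutation P of 0.0498, adjusted to 0.174 over the 7 pairs.

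**Figure D2:**
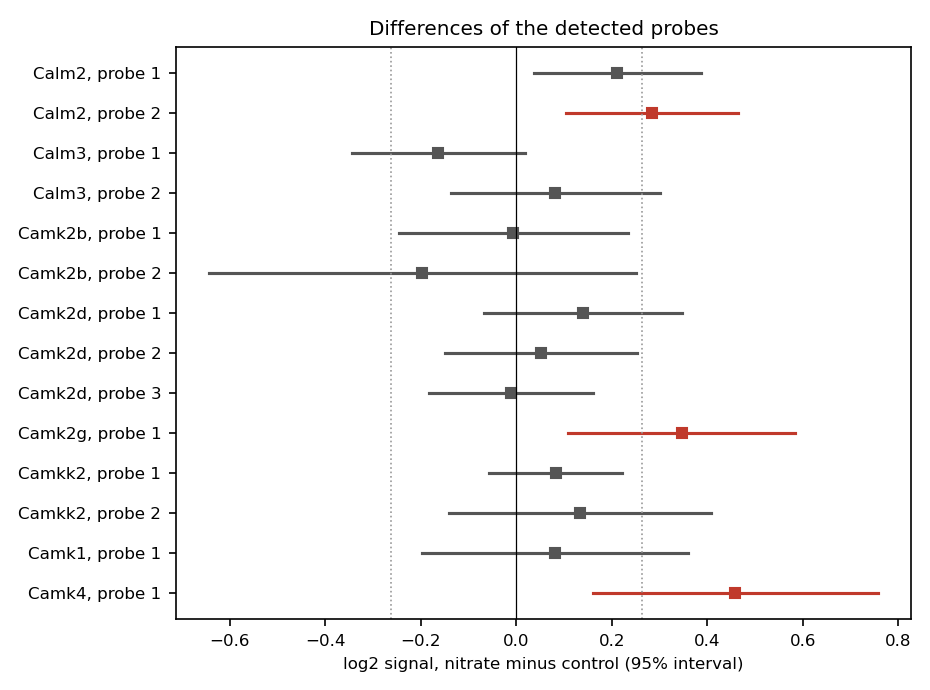
Difference in log2 signal, nitrate minus control, for the 14 detected probes, with 95% intervals from limma; red marks the 3 changed probes and the dotted lines the fold limit of 1.2. The intervals of Calm2 probes 1 and 2, Camk2g and Camk4 lie above 0, and the other 10 include it.

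Camk2g, which encodes the gamma subunit of calmodulin kinase II, rose 1.27-fold. Its single probe (chr14:21554122-21554181, minus strand, starting at base 3618) gave 12.93, 13.04, 12.80, 13.00 and 13.16 in nitrate. The controls gave 12.26, 12.59, 12.73, 12.71, 12.92 and 12.61. Control 5 lay above nitrate 3, and all 5 nitrate arrays were above the control median. The means were 12.98 ± 0.13 (SD, n = 5) and 12.64 ± 0.22 (SD, n = 6), a difference of 0.35 ± 0.11 (SE) with a limma P of 0.00803, adjusted to 0.224, and an exact permutation P of 0.0108. Within slides 1, 2 and 3 the difference was 0.56, 0.13 and 0.25. The call held in 9 of 9 other settings and with each of the 11 arrays left out, where the difference lay between 0.27 and 0.40.

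Camk2d, the delta subunit, had 4 probes, none of them called. At probe 1 (chr3:126547685-126547744, starting at base 4011) the nitrate arrays lay close together, between 11.60 and 11.73 with a median of 11.63. The controls spread from 11.15 to 11.69 with a median of 11.56, with control 1 the lowest. The means of 11.64 ± 0.05 (SD, n = 5) and 11.50 ± 0.20 (SD, n = 6) differed by 0.14, with a 95% interval from -0.07 to 0.35 (exact permutation P = 0.184). Probe 2 differed by 0.05 (exact permutation P = 0.580) and probe 3 by -0.01 (exact permutation P = 0.866). Probe 4, which the files give to another transcript of the gene, was above background on 4 nitrate and 3 control arrays, too few to enter the tests, with means of 4.71 and 4.65. Probes 1 and 3 differed from each other by 0.15, with an exact permutation P of 0.0325 and 0.174 after adjustment over the 7 pairs.

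Camk2b, the beta subunit, showed no called difference. Probe 1 (chr11:5869675-5869734) gave 9.65 ± 0.15 (SD, n = 5) in nitrate and 9.66 ± 0.21 (SD, n = 6) in controls, with a 95% interval of the difference from -0.25 to 0.23. Probe 2 gave 5.44 ± 0.52 (SD, n = 5) and 5.64 ± 0.21 (SD, n = 6), a difference of -0.20 (exact permutation P = 0.418). The nitrate arrays of slide 3 stood lowest at this probe, at 4.77 and 5.05, and the other nitrate arrays lay between 5.57 and 5.96.

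Camk2a, the alpha subunit, was not detected at either probe. Probe 2 was well above background on 1 of 5 nitrate arrays and on 0 of 6 controls. Its measured signals were 3.47, 3.80, 4.93, 4.03 and 3.92 in nitrate. In the controls they were 3.45, 2.48, 2.43, 2.90, 2.46 and 2.32. These groups did not overlap, but the lowest signal among the probes well above background lay between 3.44 and 4.40 on the same arrays. With the controls set at that limit their mean is 4.12, above the nitrate mean of 4.03, so no fold change is given. The fit over all probes gave an unadjusted P of 0.000547 at this probe, and 1417 of the 32051 probes outside the detection rule had a P under 0.05 in that fit. Probe 1 was above background on none of the 11 arrays, with means of 2.76 and 2.75.

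**Figure D3:**
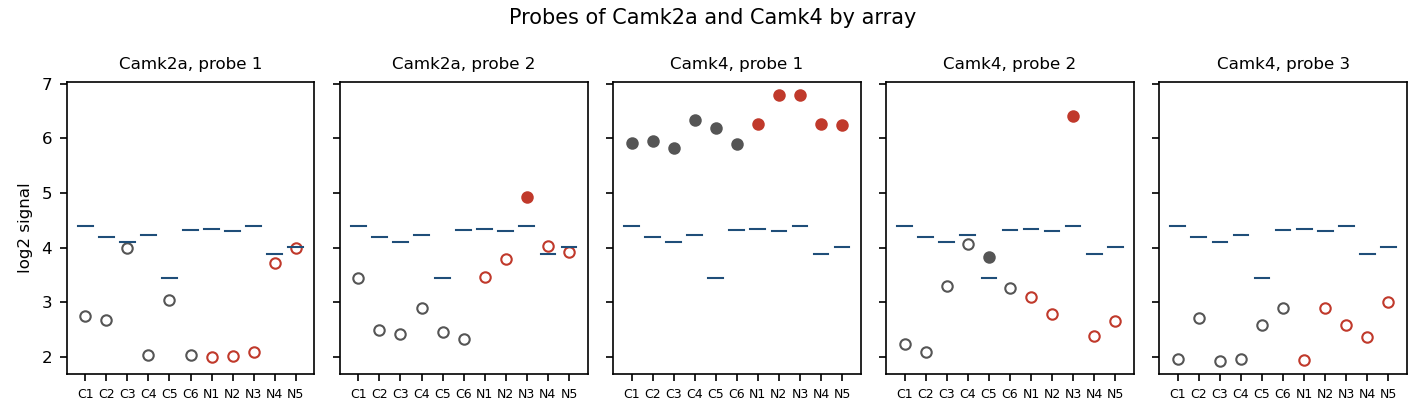
Log2 signal of the Camk2a and Camk4 probes in controls 1 to 6 (C1 to C6, grey) and nitrate arrays 1 to 5 (N1 to N5, red); filled points were well above background, open points were not, and the blue bars mark the lowest signal among the probes well above background on that array. Camk4 probe 1 was above the bars on all 11 arrays, and the other 4 probes were mostly under them.

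In the cascade, Camk4, the nuclear kinase known from neurons and T cells, rose 1.37-fold at the 1 probe that was detected. Camk4 probe 1 (chr18:33355362-33355421, plus strand) starts at base 12271 of its transcript and was well above background on all 11 arrays. The nitrate arrays gave 6.26, 6.79, 6.80, 6.27 and 6.25. The controls gave 5.91, 5.95, 5.83, 6.33, 6.18 and 5.90. Nitrate 2 and 3 stood apart above the rest, and control 4 lay above the 3 lower nitrate arrays. The means of 6.47 ± 0.29 (SD, n = 5) and 6.02 ± 0.20 (SD, n = 6) differed by 0.46 ± 0.14 (SE), with a limma P of 0.00583, adjusted to 0.209, and an exact permutation P of 0.0195. Within slides 1, 2 and 3 the difference was 0.60, 0.68 and 0.26, and the call held with each array left out. With the normexp background correction the difference was 0.22, under the fold limit.

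The other Camk4 probes were at or under background on nearly every array. Probe 2, which starts at base 436, was above background on nitrate 3, at 6.41, and on control 5, at 3.83, and the other 9 arrays lay between 2.09 and 4.06. Probe 3, at base 2612, was above background on none of the 11 arrays. The call on Camk4 therefore rests on a probe near the end of a long transcript.

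Camkk2, the kinase upstream of Camk1 and Camk4, was measured by a bright and a dim probe and was not called at either. At probe 1 (chr5:123183273-123183332) the nitrate arrays lay between 11.68 and 11.87 and the controls between 11.61 and 11.84, a difference of 0.08 with a 95% interval from -0.06 to 0.22 (exact permutation P = 0.128). Probe 2 differed by 0.13 (exact permutation P = 0.340). Camk1, a cytosolic kinase, gave 8.76 ± 0.26 (SD, n = 5) in nitrate and 8.68 ± 0.19 (SD, n = 6) in controls (exact permutation P = 0.554). Both nitrate arrays of slide 3, at 8.46 and 8.51, were below the other 3, which lay between 8.89 and 9.04.

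**Figure D4:**
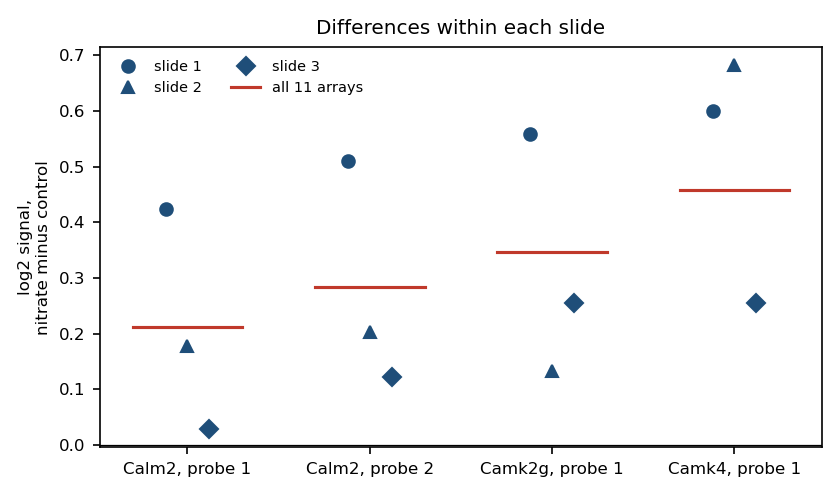
Difference in log2 signal, nitrate minus control, on each of the 3 slides for both Calm2 probes, Camk2g and Camk4 probe 1; the red bars give the difference over all 11 arrays. Slides 1 and 3 hold 2 arrays of each group and slide 2 holds 1 nitrate and 2 control arrays. All 12 within-slide differences are above 0, and for Calm2 and Camk2g the one of slide 1 is the highest.

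The 8 detected members did not move as one from mouse to mouse. With each gene at its brighter probe, deviations from the group means were compared over the 11 arrays for 28 pairs of genes, and the correlation was above 0 in 18 pairs, with a median of 0.11. It was highest for Camk2d and Camk2g, at 0.81, and lowest for Calm3 and Camk2g, at -0.65, and Calm2 and Calm3 had -0.40. These values rested in large part on control 1, without which they were 0.51, -0.19 and 0.09, while 16 of the 28 pairs were above 0. Other arrays moved them away from 0. With nitrate 5 left out Camk2d and Camk2g had 0.89 and Calm2 and Calm3 -0.75, and with control 5 left out Calm3 and Camk2g had -0.78. Of 12203 genes compared in the same way, the closest to Calm2 were Zfp764 (0.97), E430018J23Rik (0.95) and Tagln2 (0.95). Among the closest to Camk2g were Arid4b (0.98) and Plekhm2 (0.96), and the closest to Camk4 were Nfyb (0.91), Gm9523 (0.90) and Slc41a1 (0.85). These correlations share the arrays and their normalization and are descriptions without a test.

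Around the members, 7 lists of the pathway held 72 genes, of which 61 were detected. At the brightest detected probe of each gene, 11 were changed, 8 of them higher and 3 lower, which is 18.03% of the 61 beside 9.00% of all detected probes. The median difference over the 61 was 0.04. One of the 8, Pcp4, passed the detection rule only through the nitrate arrays, and with detection required on all 11 arrays 10 of 52 genes were changed, or 19.2%, beside 8.50% of all probes so detected. Without control 1 the number was 7, or 11.5%, beside 6.75% of all detected probes, and with normexp background correction it was 6, or 9.84%, beside 5.15%.

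Among the other calmodulins and calmodulin kinases, 2 of the 5 detected genes were changed, both higher. Calml4, a calmodulin-like gene, rose from 7.20 ± 0.14 (SD, n = 6) to 7.48 ± 0.05 (SD, n = 5), and its groups did not overlap. Camkk1, the other kinase kinase, was higher by 0.28, from 8.92 to 9.20 (exact permutation P = 0.0325). Without control 1 both were under the fold limit, at 0.23 and 0.24, and with normexp background correction they were at 0.22 and 0.23. The call on Camkk1 was also lost without nitrate 2 (0.21) and without control 2 (0.24). Camk1d and Pnck, which encode kinases I delta and I beta, differed by 0.02 and 0.15 and were not called. None of the 4 inhibitors and phosphatases of calmodulin kinases was called, among them Camk2n1, an inhibitor of kinase II, at 0.15.

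Of 8 detected genes in the list of other calmodulin-dependent kinases and their relatives, 1 rose and 1 fell. Eef2k, which phosphorylates elongation factor 2, rose by 0.41 (8.79 ± 0.23 against 8.38 ± 0.11, SD), and Dapk1, a kinase linked to cell death, fell by 0.42 (8.13 ± 0.21 against 8.56 ± 0.19, SD). Their exact permutation P values were 0.00649 and 0.0108. Mylk, the myosin light chain kinase of smooth muscle, gave 11.70 ± 0.22 (SD, n = 5) in nitrate and 11.55 ± 0.25 (SD, n = 6) in controls and was not called (exact permutation P = 0.303).

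Of 11 detected genes in the list of calmodulin-binding regulators and their relatives, 2 were called higher and 1 lower. Pcp4, a small protein that speeds calcium exchange on calmodulin, was above background on 5 of 5 nitrate arrays and on only 2 of 6 controls, with measured means of 4.997 and 4.506, and no fold change is given. With normexp correction it was not called. Pcp4l1, a relative of Pcp4, was higher by 0.33, or 0.22 without control 1, and its call held in 6 of the 11 fits that leave out 1 array. Strn, a scaffold of a phosphatase complex that binds calmodulin, was lower by 0.27 at a signal near 5, and the call was lost in 3 of 9 other settings and held in 7 of those 11 fits.

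Of the 14 detected enzymes that calmodulin activates, 1 rose and 1 fell, and the median difference was 0.01. Atp2b2, a calcium pump of the plasma membrane, rose by 0.40 (7.75 ± 0.19 against 7.36 ± 0.28, SD). Nos2, the inducible nitric oxide synthase, fell by 0.32 (7.19 ± 0.13 against 7.51 ± 0.23, SD), and by 0.24 without control 1 and 0.22 with normexp correction, both under the fold limit. Nos3, the endothelial synthase, differed by -0.13 and was not called, and Nos1 was not detected. Among 19 detected substrates of the kinases 2 rose, Ryr2, the calcium release channel of the heart, by 0.48 and Syn1, a protein of synaptic vesicles, by 0.38. With normexp correction Syn1 was higher by 0.24, under the fold limit. Pln, a small inhibitor of the sarcoplasmic calcium pump, differed by 0.39 with SDs of 1.09 and 0.83 and was not called, and Creb1 differed by 0.03. Ryr2, Atp2b2 and Nos2 are also genes that the study listed from these samples.

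**Figure D5:**
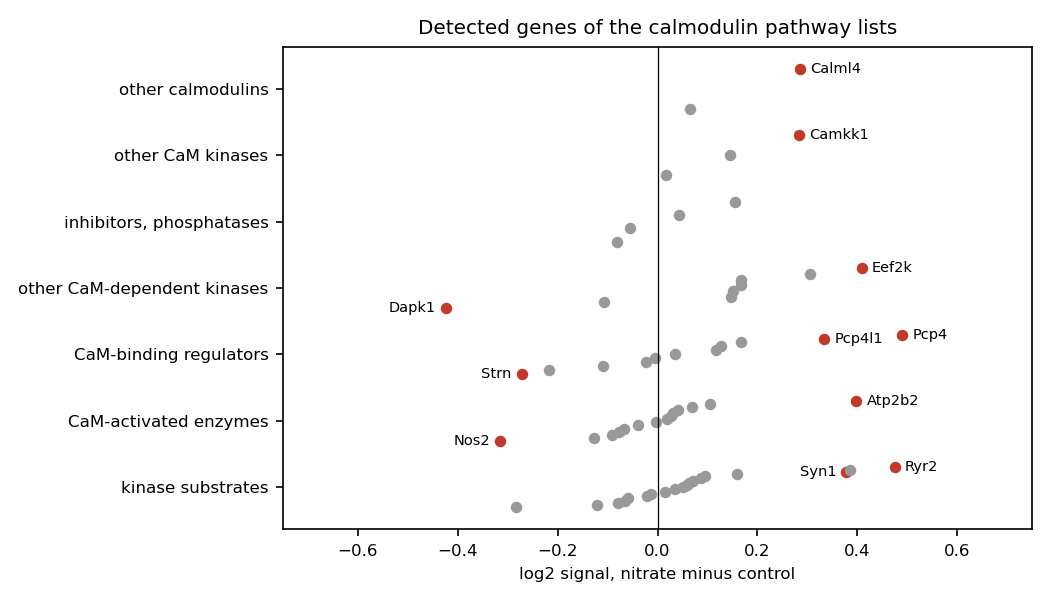
Difference in log2 signal, nitrate minus control, for the 61 detected genes of the 7 pathway lists, 1 point for each gene at its brightest detected probe; CaM stands for calmodulin and red marks the 11 changed genes. Of these, 8 lie to the right of 0 and 3 to the left.

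The cell types of the wall were followed through marker lists beside these values. All 7 smooth muscle markers were detected and 1, Lmod1, was called, higher by 0.31, with a median difference of 0.15 over the list. Of the 7, 6 lay higher in nitrate, and Myocd lay lower by 0.21. Smtn was higher by 0.26, just under the fold limit, and its groups did not overlap, which held for 2.75% of all detected probes. The summed signals of the 7 markers lay between 675953 and 708652 in nitrate and between 538438 and 705559 in controls. The mean deviation of this list had a correlation with that of Calm2 of 0.82 over the 11 arrays, with Camk2d of 0.77, with Camk2g of 0.60 and with Camk4 of 0.30. Without control 1, whose summed smooth muscle signal was the lowest, it was 0.82 for Calm2, 0.12 for Camk2d, -0.21 for Camk2g and 0.34 for Camk4. Camk2g had -0.84 with the endothelial list, or -0.75 without control 1, of which none of the 7 was called. The part of the amount of smooth muscle in the differences of Calm2 and Camk2g was not tested.

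Adipocyte markers were lower in nitrate, with 3 of 7 called (Adipoq, Retn and Cfd) and summed signals between 239924 and 311028 against 310224 to 430766 in controls. The adipocyte list had a correlation of -0.57 with Calm2, -0.35 with Camk2g and -0.08 with Camk4, and without control 1 these were -0.40, 0.03 and 0.00. Other lists stood further from 0 with Calm2, the brown adipocyte list at -0.84, the Schwann cell list at -0.83 and the striated muscle list at -0.75, or -0.75, -0.77 and -0.60 without control 1. Of the 5 brown adipocyte markers, all detected, 1 was called, Cidea, lower by 0.52, while 2 of the 5, Ucp1 and Elovl3, lay higher by 0.23 each, and the median difference was -0.26. Of the 6 Schwann cell markers 5 were detected and 1, Mbp, was called, lower by 0.46, and of the 4 B cell markers the 1 detected, Cd79b, was called, lower by 0.81. Of 11 striated muscle markers 8 were detected and 0 were called, at a median difference of 0.67, and their sums spread from 15470.6 to 53228.3 in nitrate and from 8370.62 to 37407.3 in controls. Of the 8 T cell markers, 6 were detected and 1, Cd2, was called, lower, while 3 of the 6 lay higher, the median difference was -0.02, and their sums were 1745.13 to 2428.69 against 1696.04 to 2471.98. Of 9 neuron markers 3 were detected and 0 called, with sums of 18597.8 to 27970.2 against 17976.8 to 26271.7. Camk4 had a correlation of -0.02 with the neuron list and -0.02 with the T cell list, or 0.06 and 0.03 without control 1. With the striated muscle and brown adipocyte lists Camk4 had -0.54 and -0.49, or -0.60 and -0.54 without control 1. All 6 fibroblast markers were detected and 0 called, all 6 were higher with a median difference of 0.13, and their sums were 144510 to 184126 against 130784 to 165669. The fibroblast list had a correlation of 0.70 with Camk4, 0.44 with Calm2 and 0.36 with Camk2g, or 0.74, 0.17 and -0.09 without control 1. The value for Calm2 also hung on another array, and with nitrate 1 left out it was 0.93. All 6 macrophage markers measured were detected and 0 called, all 6 were higher with a median difference of 0.10 (5 of 6 with 75th percentile scaling), and their sums were 5555.43 to 10081 against 7615.53 to 9105.2. The macrophage list had a correlation of 0.48 with Camk4, -0.54 with Camk2g and -0.10 with Calm2, or 0.58, -0.45 and 0.14 without control 1. With nitrate 2 left out the value for Calm2 was -0.47. The part of fibroblasts and of adipose, muscle, immune and nerve tissue in the members' differences was not tested.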

How the data were processed

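Per the labels and the methods, 100 ng of total RNA was labelled with Cy3. The authors deposited spot intensities from Feature Extraction 10.7.1.1, background-subtracted but not normalized between arrays, and a table of log2 values, whose columns follow quantile normalized signals after centring (correlation with the values used here at least 0.9999).

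The processed intensity was raised to at least 1, put on the log2 scale, averaged over unflagged spots of a probe and quantile normalized. limma 3.58.1 in R 4.3.3 compared the groups over all detected probes, and single probes had exact two-sided permutation tests. Alternatives covered scaling, background correction, the deposited table, detection rules, prior, slide and replicate number as blocks, and each array left out.

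Named genes were every member probe, the changed genes of the pathway lists, Mylk, and the 3 genes closest to each changed member. Some results under this rule are not reported here. Gene names not covered by this rule were named after their values were seen. Members and lists were chosen with earlier results of these data known. On simulated data with 200 of 23614 probes changed, 91% of changes of 0.5 and 99% of changes of 1 log2 unit were recovered for this comparison. Of the unchanged probes 4.87% had a limma P under 0.05. The noise was drawn for each probe apart, with no part shared by an array or slide. Changes under 0.5, the size of the members' called differences, were not simulated. The labels speak of 6 mice in each group, and 5 nitrate arrays were analysed here.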

Additional observations from a re-analysis of the deposited data

Results flagged for a closer look

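In 2 of 54 sets of values, which are 27 probes in each group, those of the 14 detected member probes and of the pathway genes under the naming rule, 1 array stood far from the others of its group. At Calm2 probe 2, control 1 lay lowest, and its gap to the next control was 0.781 of the range of the controls. At Camk2d probe 3, nitrate 5 lay lowest, and its gap was 0.788 of the range of the nitrate arrays. At the limits used, chance flags about 1 in 20 such sets, or 1.35 of the 27 in each group, and 1 was found in each.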

How the results depend on the processing

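The number of changed probes among all detected probes was 2127, against 1217 with normexp background correction and 3224 without a detection filter, and between 1595 and 2423 with each array left out. The changed member probes numbered 2 of 14 with normexp correction (14.3%), beside 5.15% of all detected probes. Without a detection filter they numbered 4 of 19 (21.1%), where Camk2a probe 2 was added, beside 5.79% of all probes. In the other settings they numbered 3, beside 8.50% to 10.4% of all probes tested, and with each array left out 2 or 3. They were 2 of 14 without control 1 or without nitrate 2, beside 6.75% and 6.84% of all detected probes. The changed pathway genes numbered 6 with normexp correction and 7 to 12 with each array left out. Camk2b probe 1, at -0.01, was at 0.00643 with 75th percentile scaling and between -0.0633 and 0.0469 with each array left out, and Camk2d probe 3, at -0.01, was at 0.00250 with that scaling, 0.00458 with slide as a block, 0.0158 with the replicate block and between -0.0580 and 0.0304 with each array left out, and neither was called in any setting. Over the settings other than single slides, member probes kept their direction and their side of the limits in 264 of 280 cases, with 3 calls lost and 13 directions turned, those of the 2 probes just named. Within single slides the direction was that of all arrays in 30 of 42 cases and turned in 12, in 9 of the 14 probes, none of them called. The correlations without control 1 or another single array were added after seeing the data. For the named pathway genes 237 of 259 were kept and 22 calls were lost. The cause was not tested. The replicate numbers did not pair the arrays: the correlations of same-numbered arrays lay between -0.14 and 0.18, and 1 of 5 nitrate arrays correlated best with its own number. With the replicate block 2432 probes were changed, 3 of them members. Signals near the background limit the results for Camk2a, Camk4 probes 2 and 3, Camk2d probe 4 and Pcp4.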
